A study of Zea mays with 12 samples.

Results

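The replication timing of 5 maize genes of meristem and leaf patterning was read in root tip cells: the homeobox gene kn1, the ligule genes lg1 and lg2, the epidermal homeobox gene ocl4 and the leaf margin gene WOX3A, which the gene table also lists as ns1. They were chosen by name and placed by symbol or synonym, and they are 5 of 33141 protein-coding genes with a timing class. The class at each midpoint, the segment holding it and the classes nearby were part of that choice, so they are given below as a description. The source was the inbred B73, as 3-day seedlings grown at 28 C and given 25 µM EdU, a thymidine analogue, for 20 min before transfer to 100 µM thymidine. Nuclei of the last 1 mm of the root were sorted into 4 groups of 3 biological replicates, G1 and early, mid and late S, and EdU-labelled DNA was immunoprecipitated in the 3 S-phase groups, while G1 DNA was the reference. All 12 libraries shared the genotype and the pulse.

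The values available were 1 segmentation of 20613 segments with no column for a library, so no value per replicate, no error and no depth can be given, and no test between samples was possible. All but 9 segments, which have other classes, carry ES, MS or LS, read as early, mid and late S, or the mixed classes ESMS and MSLS.  The mixed classes stand for neighbouring stages. ES held 54.8% of the protein-coding genes, MS 24.3%, ESMS 11.8%, LS 4.86% and MSLS 4.22%. Segment positions follow the deposited file, for which the sources used here name no genome build.

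A shoot apical meristem keeps a pool of undifferentiated cells at its centre and forms leaf primordia on its flanks. In maize, KNOX homeobox factors such as KN1 mark the undifferentiated cells and are switched off where a leaf will form. The maize leaf then divides into sheath and blade, with the ligule and auricles at the boundary, while WUSCHEL-related homeobox (WOX) factors recruit the cells of the leaf margins and HD-ZIP IV factors act in the epidermis. Most of this happens in the shoot, and the nuclei measured here came from the root. No transcript was measured, so the classes say when the DNA of these genes was copied in root tip cells and nothing of their activity.

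The 5 genes covered both ends of S phase. Of the 5, 2 were in ES (lg1 and lg2), 1 in ESMS (kn1) and 2 in LS (ocl4 and WOX3A), and none was in MS or MSLS. Since the choice of members used these classes, nothing is read from their count against the shares of all genes. All 5 had the same class at both ends of the gene as at the midpoint, so no gene body crossed a boundary. Gene lengths in the table ran from 1337 bp for WOX3A to 8642 bp for lg2.

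**Figure D1:**
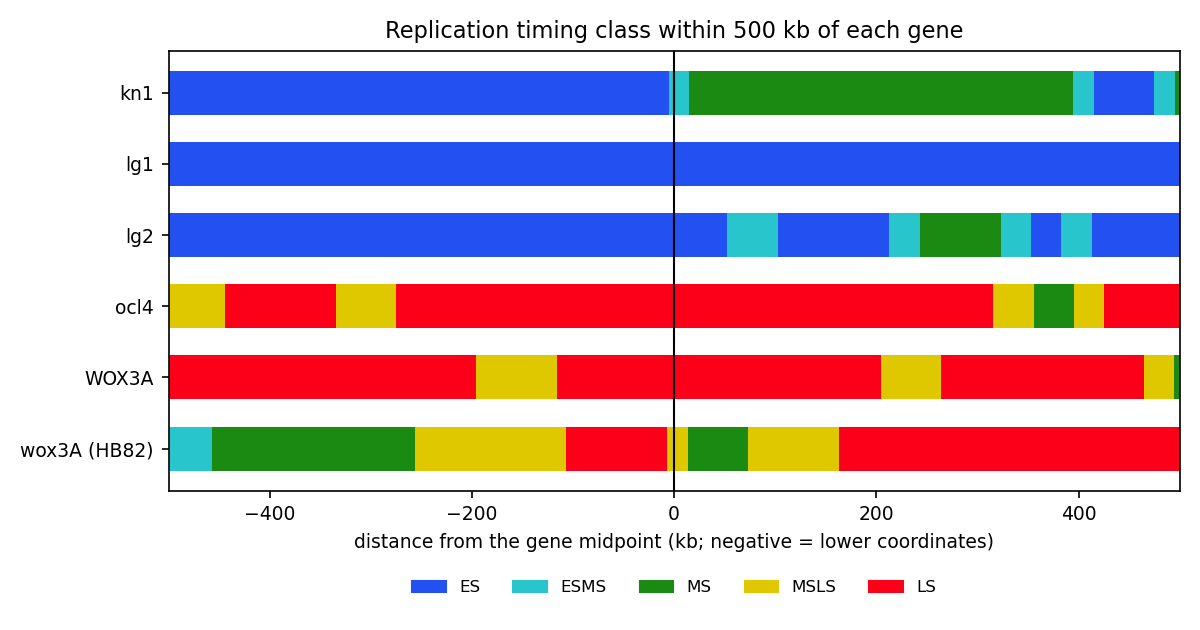
Timing class (colour) by distance from the gene midpoint in kb, within 500 kb on each side, for the 5 genes and for a further gene named wox3A (HB82), with the vertical line at the midpoint. lg1 lies in unbroken ES, kn1 at the step from ES to MS, lg2 near the end of an ES segment, and ocl4 and WOX3A in LS broken by MSLS.

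kn1 encodes the founding member of the KNOX family, whose dominant mutants form knots of misplaced tissue on the leaf. Its midpoint lay in an ESMS segment of 20 kb, from 277840001 to 277860000 on chromosome 1. The segment held no other protein-coding gene midpoint. On the side of lower coordinates the boundary was 5.19 kb away, with an ES segment of 680 kb behind it. On the other side it was 14.8 kb away, and an MS segment of 380 kb followed. The gene thus sat at a step from early to mid S.

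The surroundings of kn1 were one-sided. All windows on the lower side within 500 kb were ES. On the higher side 78% were MS, 12% ES and 10% ESMS. No window within 500 kb was in MSLS or LS, and the nearest LS segment was 13545 kb away. Of the 10 nearest protein-coding genes, 5 on each side, 8 were in ES, 2 in MS and none in ESMS; the median ESMS gene had 2 such neighbours in its own class.

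The class of kn1 rests on the match between gene table and segmentation more than that of any other of the 5. Moved by 10 kb towards lower coordinates, the gene fell in ES, and moved by 20 kb the other way it fell in MS. Around kn1, in 20 Mb, the correlation of gene count with ES was highest with the genes moved by -10 kb (r = 0.130 across 1974 windows of 10 kb) and was 0.126 with no offset. These windows are neighbours on 1 chromosome and not independent. Among the 3903 ESMS genes, 5.61% had a shorter segment, with equal lengths not counted, and 27.7% were nearer to a boundary. The median ESMS gene was in a segment of 50 kb. Over the 5872 ESMS segments the median length was 20 kb, the length of the one at kn1.

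The KNOX gene knox3 lay 278 kb from kn1 with 1 protein-coding gene midpoint between them. It was in MS, in the 380 kb segment that begins beside kn1, at 117 kb from its nearest boundary. The neighbouring pair thus differed in class.

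lg1 encodes an SBP-box factor (SQUAMOSA promoter-binding protein) needed for the ligule and auricles. It lay deep in ES, in the segment of 3.73 Mb near the start of chromosome 2 that spans 2750001 to 6480000 and holds 184 protein-coding genes. The nearest boundary was 1745 kb away, on the lower side, and the other was 1985 kb away. Only a small share of ES genes sat deeper, since 99.8% of the 18173 ES genes were nearer to a boundary. The lower boundary was a gap of 30 kb without a class, beyond which ES resumed, and the upper boundary was an ESMS segment of 30 kb.

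Every window within 500 kb of lg1 was ES. Within 2.5 Mb on each side 99.4% of windows were ES and 0.602% ESMS. The nearest MS segment was 2975 kb away and the nearest LS segment 3745 kb. All 10 nearest protein-coding genes were in ES, against 9 for the median ES gene. The nearest gene with a symbol on the lower side, the lipoxygenase gene lox6, was 80.4 kb away in the same segment, and the DNA methyltransferase gene met5 on the higher side was 6246 kb away, in an ES segment of 930 kb.

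The same segment held wus1, a maize relative of the stem cell gene WUSCHEL of Arabidopsis. wus1 was 815 kb from lg1 with 43 protein-coding genes between them. Its nearest boundary was 930 kb away. A gene that acts at the leaf boundary and one of a family that acts in the stem cell niche were thus both far inside 1 early domain.

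lg2 encodes a bZIP factor that acts in positioning the ligule. The ES segment that holds it measured 660 kb, spanned 181010001 to 181670000 on chromosome 3 and held 27 protein-coding genes. Its position in the segment was lopsided, at 607 kb from the lower boundary and 52.8 kb from the higher one. Of the ES genes, 67.3% had a shorter segment and 40.2% were nearer to a boundary. lg2 therefore stood closer to the median ES gene, at 350 kb and 72.3 kb, than lg1 did.

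On the lower side of lg2 all windows within 500 kb were ES. On the higher side 56% were ES, 28% ESMS and 16% MS, with the end of its own segment counted. Beyond that end came 8 segments that alternated between ES and later classes. The latest of these was an MS segment of 80 kb that began 243 kb from the gene. Of the 10 nearest genes 7 were in ES and 3 in ESMS, against 9 in ES for the median ES gene. The nearest MSLS and LS segments were at 7447 kb and 7607 kb. The nearest genes with a symbol were lox1 at 8175 kb and shbp1 at 2231 kb, both in ES.

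lg2 was also the ES gene of the 2 that lay in the chromosome interior. lg1, like kn1, was in the outer 20% at a chromosome end, where 70.5% of protein-coding genes were in ES. lg2, ocl4 and WOX3A were in the middle 60%, where 33.9% were in ES and 9.48% in LS.

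WOX3A, or ns1, and its duplicate ns2 together are needed to found the margins of the maize leaf, and plants that lack both have narrow leaves. The LS segment that holds WOX3A measured 320 kb, spanned 146660001 to 146980000 on chromosome 2 and held 3 protein-coding genes, WOX3A included. The nearest boundary was 116 kb away on the lower side and the other 204 kb away. The median LS gene was in a segment of 330 kb at 67.7 kb from a boundary. Of the 1611 LS genes 47.2% had a shorter segment and 65.7% were nearer to a boundary.

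LS prevailed around WOX3A. Within 500 kb 82.2% of windows were LS, 16.8% MSLS and 0.990% MS, and none was ES or ESMS. An LS segment of 840 kb lay beyond an 80 kb MSLS segment on the lower side, and one of 200 kb beyond 60 kb of MSLS on the higher side. The nearest ES segment was 1736 kb away, and 80.8% of LS genes were closer to ES. Of the 10 nearest genes 9 were in LS and 1 in MS, while the median LS gene had 3 such neighbours in LS.

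A different gene is listed as wox3A, with the further name HB82, on chromosome 6, and is matched to the same name only when capitals are ignored. It was in MSLS, in a segment of 20 kb from 37920001 to 37940000, 6.63 kb from an LS segment of 100 kb on 1 side and 13.4 kb from an MS segment of 60 kb on the other. Within 500 kb 43.6% of windows were LS and none was ES. ns2, on chromosome 4 and also listed as WOX3B, was in MSLS as well, in a segment of 180 kb, with 4.95% ES and 6.93% LS around it. All 3 WOX3 genes were thus in LS or MSLS, which together held 9.08% of all protein-coding genes. WOX3A was chosen with its class known, and wox3A (HB82) fell in MS when moved by 20 kb. The surroundings of the 3 genes ranged from 6.93% to 82.2% LS.

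ocl4 encodes an HD-ZIP IV homeobox factor of the outer cell layer, known in maize for restraining hair formation on the leaf edge. It lay near the centre of an LS segment of 590 kb on chromosome 1, from 102100001 to 102690000. The boundaries were 275 kb and 315 kb away, and 86.0% of LS genes were nearer to one. The segment held 1 other protein-coding gene midpoint, or 3.39 genes per Mb with ocl4 counted.

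Within 500 kb of ocl4 77.2% of windows were LS, 18.8% MSLS and 3.96% MS. On the higher side a 40 kb MS segment, flanked by MSLS, separated 2 LS segments. The nearest ES segment was 915 kb away, with 60.9% of LS genes closer to ES. The 10 nearest protein-coding genes spanned 1764 kb and included 5 in MSLS, 2 in MS, 2 in ES and 1 in LS, against 3 in LS for the median LS gene. Of the 10 nearest genes, most were in LS for WOX3A and outside LS for ocl4. The LS shares within 500 kb were 77.2% around ocl4 and 82.2% around WOX3A, but the 10 genes around ocl4 reached beyond that flank. Within 1 Mb the LS share was 55.7% around ocl4 and 66.5% around WOX3A.

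**Figure D2:**
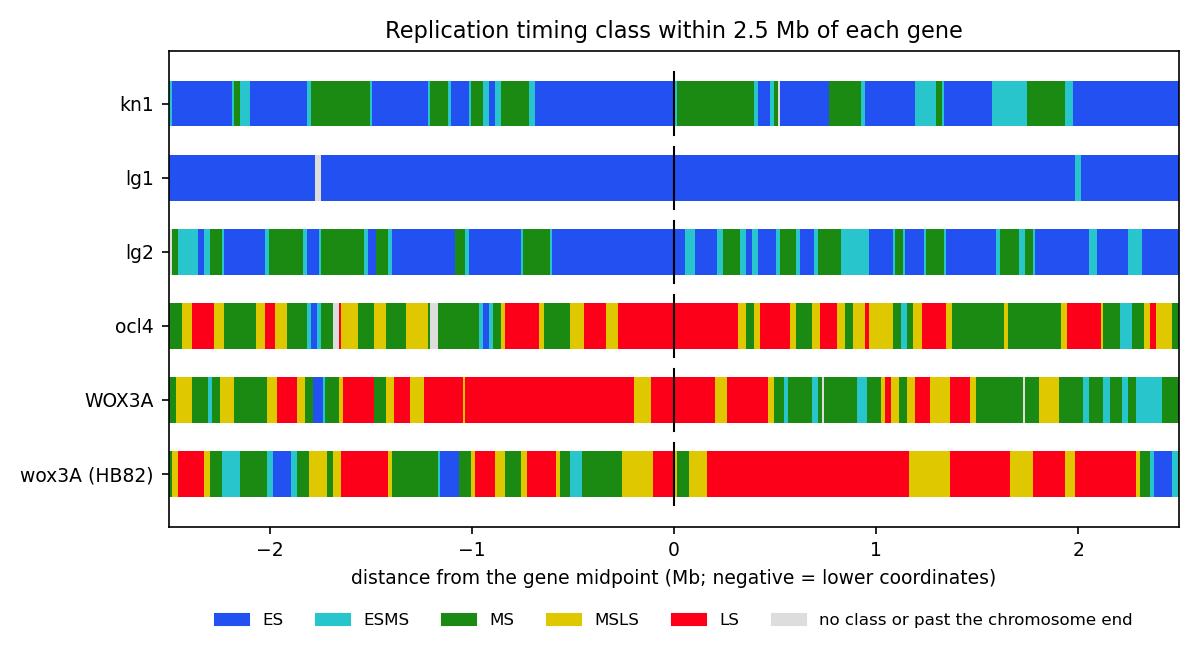
Timing class (colour) in 10 kb windows by distance from the gene midpoint in Mb, within 2.5 Mb on each side, for the same 6 genes. LS and MSLS are absent around kn1, lg1 and lg2, whereas around ocl4 and WOX3A ES takes 1.21% and 1.00% of windows.

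Surroundings within 2.5 Mb on each side, a flank chosen after seeing the data, are given as a description. The choice of members had used the classes within 500 kb. ES took 59.6% of windows around kn1, 99.4% around lg1 and 58.5% around lg2, and MSLS and LS took none. MS took 27.8% around kn1, 24.8% around lg2 and none around lg1. Around ocl4, LS took 32.6%, MSLS 24.7% and MS 38.1%. Around WOX3A, LS took 41.7%, MSLS 17.6% and MS 32.7%. Within this flank kn1, whose class was mixed, had about as much ES around it as lg2, which was itself in ES. Within 500 kb the ES share was 55.4% around kn1 and 78.2% around lg2. The 5 genes had 27 boundaries between touching segments within 500 kb, of which lg1 had 0. All 27 were single steps along the sequence that leads from ES through ESMS, MS and MSLS to LS. The share of single steps over all segments is not given, so nothing is read from this count. Beyond 500 kb ES also met MS directly, between 760 and 770 kb on the higher side of kn1.

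The number of class changes between neighbouring windows within 500 kb was 0 for lg1, 8 for lg2, 6 for kn1, 7 for ocl4 and 6 for WOX3A. The median over all protein-coding genes was 10. By class the median was 8 for ES genes, 12 for ESMS genes and 9 for LS genes, so lg2 was at the median of its class. Of all genes 30.2% had fewer changes than lg2, the highest of the 5. The choice of members used the classes within this flank, so nothing is read from their low counts.

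Gene density was not part of the choice of members, but it comes from the same genome and has no error between samples. Within 500 kb there were 43 protein-coding genes per Mb around lg1, 30 around lg2, 18 around kn1, 8 around WOX3A and 4 around ocl4. The order was that of the classes from early to late, with the 2 LS genes lowest. Over all protein-coding genes the median was 21 per Mb, and 93.4% had a lower value than lg1 and 0.914% a lower value than ocl4. Within its own class each gene was less extreme, as 88.6% of ES genes were below lg1, 61.9% of ES genes below lg2, 44.9% of ESMS genes below kn1, 44.2% of LS genes below WOX3A and 10.1% of LS genes below ocl4.

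**Figure D3:**
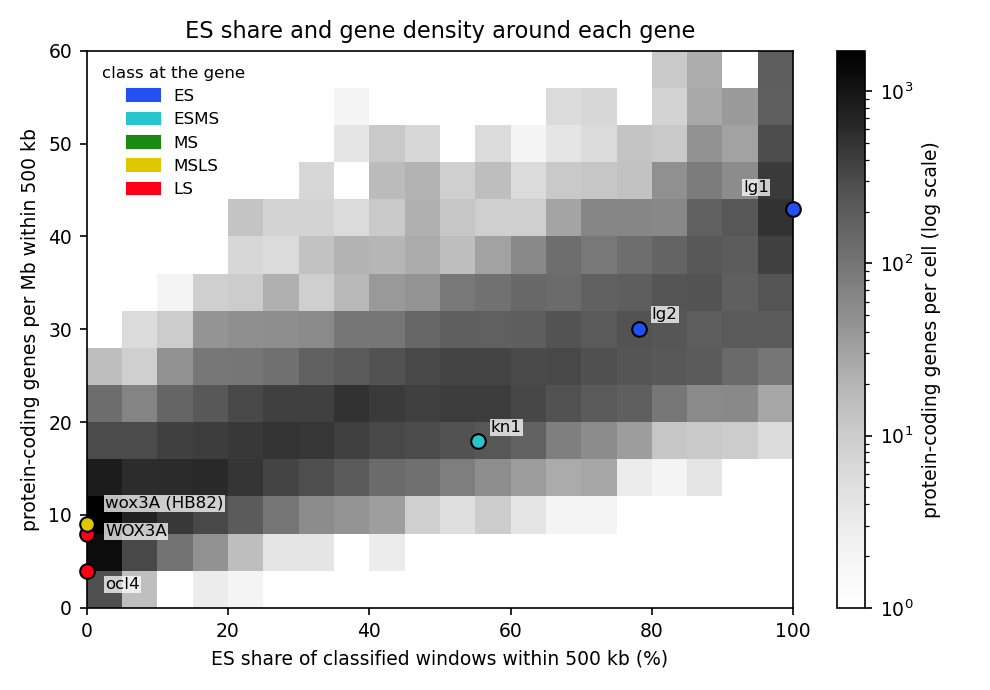
ES share of classified windows within 500 kb (x axis, percent) against protein-coding genes per Mb within 500 kb (y axis, shown up to 60), with all classified protein-coding genes as grey cells on a log colour scale and the 6 genes as points coloured by class. lg1 is at 100% and 43 genes per Mb, and ocl4 at 0% and 4.

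Distances to neighbouring genes come from the same midpoints as density, and those to the nearest gene did not follow its order throughout. The nearest protein-coding midpoint was 7.31 kb from lg1, 9.05 kb from lg2, 17.5 kb from WOX3A, 18.1 kb from kn1 and 79.9 kb from ocl4. On its sparser side WOX3A had 294 kb to the next gene, ocl4 353 kb, kn1 225 kb, lg1 53.9 kb and lg2 15.1 kb. The 10 nearest genes took up 199 kb around lg1, 356 kb around lg2, 829 kb around kn1, 1099 kb around WOX3A and 1764 kb around ocl4. Few genes of the table have a symbol of their own, and the nearest of these on each side were lox4 (7004 kb, ES) and lw1 (1652 kb, ESMS) for kn1, CPPS2 (21856 kb, MS) and CNR4 (12062 kb, MSLS) for ocl4, and pht12 (44422 kb, LS) and PBF (11311 kb, ESMS) for WOX3A.

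Genes with like surroundings were sought by the share of windows of 10 kb, up to 500 kb on each side of the midpoint, with the same class. For lg1, 9 genes with a symbol matched in 100% of windows, pcr1 on chromosome 2 among them, so this gene had no single closest match. Among genes with a symbol the closest to lg2 was the peroxidase gene PER42, with 85.1%, and then the SBP-box gene sbp17, with 82.2%. For kn1 they were sbp17 and the LOB-domain gene ra2, both with 72.3%. The closest to WOX3A were PRMS with 82.2% and the oxophytodienoate reductase gene opr6 with 76.2%, and the closest to ocl4 were the same pair in the other order, opr6 with 79.2% and PRMS with 77.2%. Only classified genes with a symbol of their own, 211 or 212 for each member, were open to this choice. Among all genes the highest share was 90.1% for kn1, 89.1% for lg2, 84.2% for ocl4 and 90.1% for WOX3A. The median gene matched kn1 in 36.6% of windows, lg2 in 36.6%, lg1 in 39.6%, ocl4 in 2.97% and WOX3A in 0.990%.

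The families of the 5 genes were spread over the classes. These lists were chosen with earlier results of these data known and matched by name. With a single segmentation their counts carry no test and are set beside the share of all protein-coding genes only as a description. The members are counted in their lists. Together the 7 lists located 83 genes, of which 79 had a class, with 55.7% in ES and 11.4% in LS. The shares over all protein-coding genes were 54.8% and 4.86%. The LS genes of the lists include ocl4 and WOX3A, chosen with their class known, and SBP1, named for another protein (below). Nothing is therefore read from the difference in LS.

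Among the 9 KNOX genes reported here, which are not the whole family, MS held 4, ES 3 (33.3% beside 54.8% of all protein-coding genes) and ESMS 2. The ES genes were knox4 (also gnarley1, in a segment of 770 kb), knox7 (760 kb) and lg4b (230 kb). lg4 was in ESMS with kn1, and knox3, knox8, lg3 and knox6 were in MS. The ES share within 500 kb ran from 0% at knox6 to 91.1% at knox7, with a median of 47.5%, and kn1 at 55.4% was above that median. lg3 was in MS in a segment of 50 kb, yet 54.5% of the windows around it were LS.

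Among 13 WOX genes 8 were in ES, or 61.5% beside 54.8% of all protein-coding genes, and the remainder were wox5B in ESMS, wox9B in MS, and WOX3A, ns2 and wox3A in LS or MSLS. The ES genes were wus1, wox2A, wox13A, wox9C, wox9A, wox13B, wox4 and wus2. Of these wox9C was in a segment of 3980 kb, wox4 in one of 2000 kb, wox13B in one of 1680 kb and wus2 in one of 1200 kb. The ES share around the other 10 WOX genes was at least 55.0%, at wox9A, and around the 3 WOX3 genes it was at most 4.95%, at ns2. No WOX gene fell between these values.

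Of 5 OCL genes, the HD-ZIP IV factors named outer cell layer, 3 had a class, and each had a different one. ocl2 was in ES in a segment of 350 kb, ocl5 in MS in one of 100 kb and ocl4 in LS. ocl1 lay in a gap of 30 kb with LS on both sides, on chromosome 3 from 27660001 to 27690000. ocl3 lay in a gap of 20 kb between ES and MS, on chromosome 7 from 147870001 to 147890000. Over all protein-coding genes 1.59% had no class.

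The SBP-box list, to which lg1 belongs, had 18 of 24 classified genes in ES (75.0%), 4 in MS (16.7%) and 2 in LS (8.33%), where all protein-coding genes had 54.8%, 24.3% and 4.86%. The LS genes were sbp1 on chromosome 5, in a segment of 130 kb, and a gene with the synonym SBP1 on chromosome 2. The latter is also named hsbp1, the name of a heat shock factor-binding protein, and without it the list had 18 of 23 in ES and 1 in LS. The MS genes, named here after their values were seen, were tga1, sbp25, sbp9 and a second gene called sbp3. sbp4 lay in a gap of 20 kb between ES and MS. None of the other genes of this list reached the distance of lg1 from a boundary, the next being sbp23 at 363 kb, named for this value.

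The bZIP gene FEA4, a regulator of meristem size, was in ES with lg2, in a segment of 120 kb at 1.85 kb from its boundary. The ES share within 500 kb was 31.7% around FEA4 and 78.2% around lg2.

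**Figure D4:**
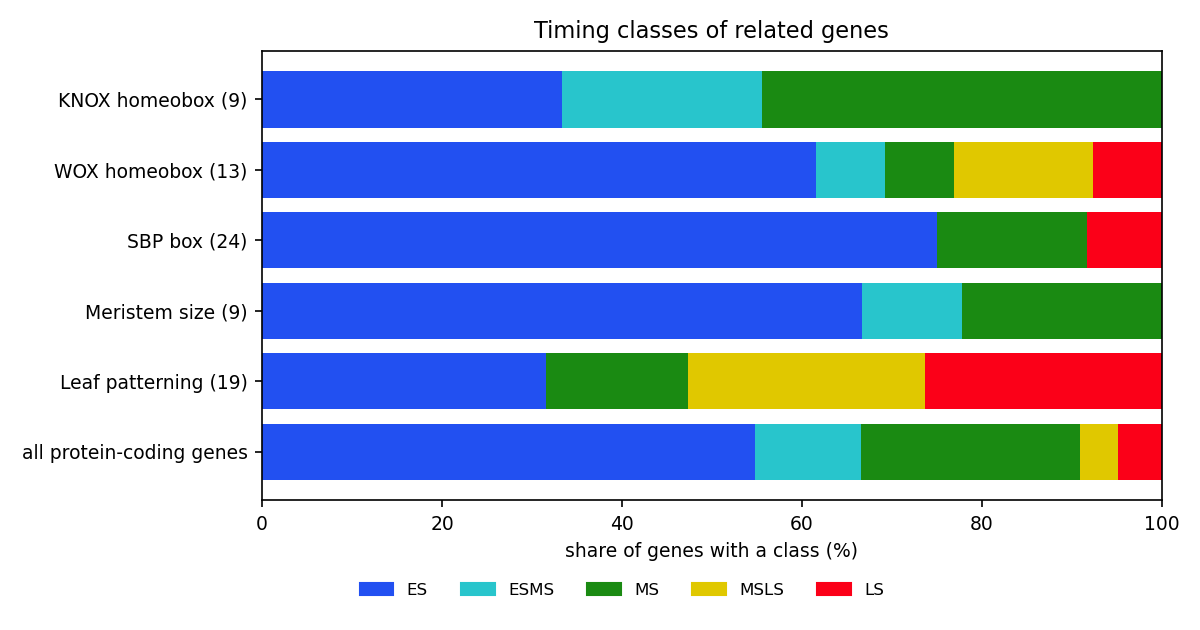
Share of genes in each timing class (x axis, percent of genes with a class) for the lists with at least 9 classified genes, number in brackets, and for all protein-coding genes. Leaf patterning has 26.3% in LS and 26.3% in MSLS, and the meristem size list has none in either.

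Of 9 matched genes of meristem size and epidermal signalling, 6 were in ES, 1 in ESMS and 2 in MS. ES held 66.7% of this list and 54.8% of all protein-coding genes. None was in MSLS or LS, where 4.22% and 4.86% of all protein-coding genes lay. In ES were the G-protein subunit gene ct2, the calpain gene dek1, the coactivator gene GIF1, the receptor kinase gene TD1 and the epidermal receptor kinase gene cr4, in segments of 130 to 760 kb. The sixth, matched by the synonym Ct2, carries the catalase names Cat0 and cat2, and without it 5 of 8 were in ES. abph1, a response regulator gene of leaf arrangement, was in ESMS in a segment of 20 kb, like kn1. The receptor-like genes fea3 and fea2 were in MS.

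Genes of leaf polarity, leaf boundary and leaf identity were spread from ES to LS. Of 19 with a class, 6 were in ES (31.6%), 5 in MSLS (26.3%), 5 in LS (26.3%) and 3 in MS (15.8%). Over all protein-coding genes the shares were 54.8% in ES, 4.22% in MSLS, 4.86% in LS and 24.3% in MS. Some of the MSLS and LS genes lay close to a class boundary, as given below. The ES genes, named after their values were seen, were rld1 and rld2 in segments of 820 kb and 2280 kb, the YABBY genes yab10, yab14 and YAB3, and cg1. cg1 is annotated as a long non-coding RNA gene, unlike the protein-coding genes set beside the list, and its midpoint was 0.033 kb from a boundary. With the class taken at the higher coordinate end of each gene, the list had 5 genes in ES. The LS genes were the YABBY genes YAB11 and YAB5, the KANADI gene kan3, the boundary gene nam1 and gl15, an AP2 factor of juvenile leaf identity. Their segments measured 230 kb, 530 kb, 180 kb, 200 kb and 160 kb, so that ocl4, at 590 kb, was in a longer LS segment than each of them, and WOX3A, at 320 kb, in a longer one than all but YAB5.

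The MSLS genes were rs2, a MYB factor that keeps KNOX genes off in leaves, the KANADI genes kan1 and mwp1, the TCP gene BAD1 and the LOB-domain gene IG1. The midpoints of rs2, BAD1 and IG1, and of kan3 and nam1 in LS, were 1.24 to 8.76 kb from a boundary. Their classes rest on the match of gene table and segmentation, like that of kn1. The other MSLS and LS genes of this list were 32.0 kb or more from a boundary. YAB6 had no class, in a gap of 80 kb between MS segments. The MS genes, named after their values were seen, were yab9, ZYB15 and lbl1, the last with 72.3% LS within 500 kb. The list's median ES share within 500 kb was 17%, against 40.6% over all protein-coding genes and 56.6% for the meristem size list.

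**Figure D5:**
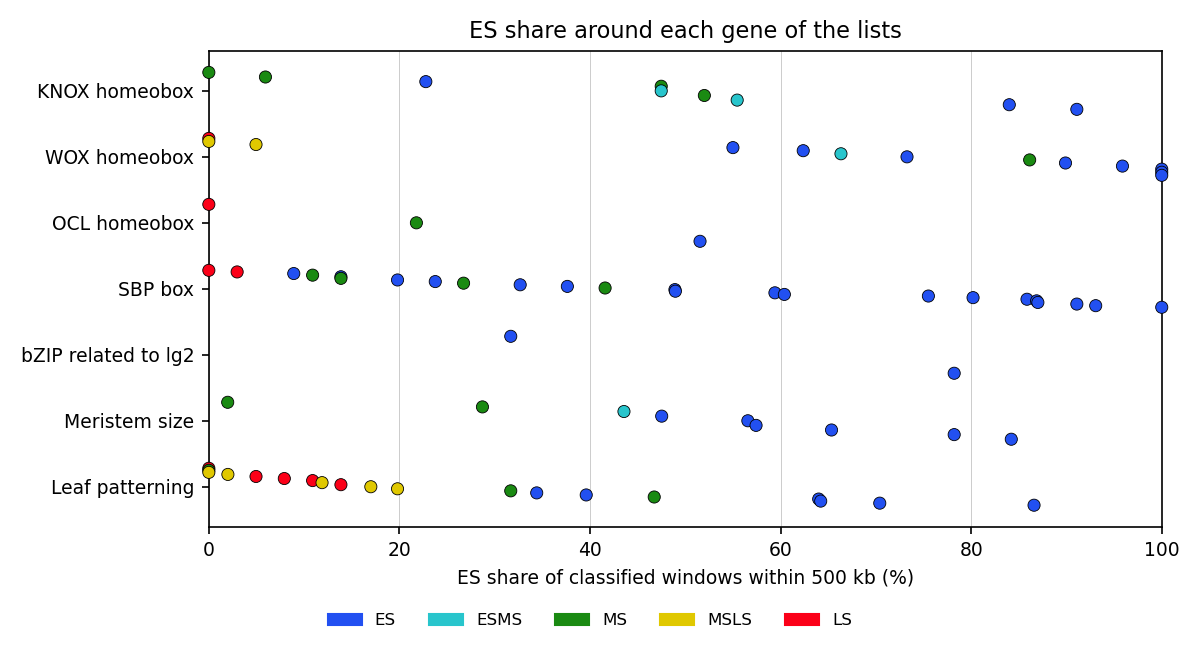
ES share of classified windows within 500 kb (x axis, percent) for each classified gene of the 7 lists, as points coloured by the class at the gene, with the vertical offset inside a list only separating points. The WOX genes fall at or below 4.95% or at or above 55.0%, and the leaf patterning genes in LS and MSLS all lie at or below 19.8%.

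The match of the gene table and the segmentation was checked at these genes. On all 10 chromosomes the correlation of gene count with ES across 10 kb windows was highest within 10 kb of no offset, with r from 0.196 to 0.258 at no offset. In the 20 Mb around a gene it peaked at -10 kb for lg2 and ocl4, at -20 kb for WOX3A and at 50 kb for lg1. Each of these offsets is smaller than the distance of that gene from its nearest boundary, and for kn1 it is not.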

How the data were processed

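DNA of root tip nuclei sorted by S-phase stage was sequenced in 12 libraries. SAMtools 1.9, Bowtie2 2.5.1 and Trimmomatic 0.39 are among the tools in the submitters' processing notes. The authors deposited 1 segmentation in windows of 10 kb, per the file header, whose values are of another kind than counts: coordinates and a class name. The segmentation method, its thresholds, the genome build and the pooling of replicates are not named by the sources used here, and the depth is unknown.

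Gene names and positions came from the RefSeq table of Zm-B73-REFERENCE-NAM-5.0, and no gene coordinate is printed. The match was checked by correlating gene count with ES across 10 kb windows at offsets of up to 200 kb each way. Genes were given the class that holds their midpoint. Shares are of the 10 kb windows with a class. Python 3.11.15, numpy 2.4.6 and pandas 2.3.3 were used, and the assignment was tested on simulated data. No statistical test was run.

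The members and lists were chosen with earlier results of these data known, and a few genes are not reported here. Named were the members, list genes in MSLS, LS or without a class, all genes of lists of up to 15, and, among the 216 of 33681 protein-coding genes with a symbol of their own, the 2 with the most alike surroundings of each member and the nearest on each side. Alternatives were other positions in the gene, moved genes, joined or absorbed segments, other flanks, all gene types, symbols only and single chromosomes.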

Additional observations from a re-analysis of the deposited data

How the results depend on the processing

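No paired analysis was possible because the segmentation has no column for a library, and no replicate could be left out. Classes are numbered from 1 (ES) to 5 (LS), lengths and densities count as moved past 1.5 times and shares past 10 points, and 133 of 174 alternative values did not move. The classes of lg1, lg2, ocl4 and WOX3A held in all alternatives run, but these could not have changed them. Genes were moved by at most 20 kb and only segments of 20 kb or shorter were absorbed. Each of these genes lay 52.8 kb or more from a boundary, so nothing is read from their unmoved classes. kn1 went to 1 when moved by -20 or -10 kb or with segments of 20 kb or shorter absorbed, and to 3 when moved by 20 kb. wox3A (HB82) went to 5 when moved by -20 or -10 kb or with short segments absorbed, and to 3 when moved by 20 kb. Absorbing short segments gave segments of 700 kb at kn1 and 120 kb at wox3A (HB82). With mixed classes joined to ES and LS, segments measured 730 kb at kn1, 1920 kb at WOX3A and 270 kb at wox3A (HB82), and boundaries were 14.8 kb from kn1, 243 kb from lg2, 494 kb from WOX3A and 13.4 kb from wox3A (HB82). Joined to MS, segments were 420 kb at kn1 and 170 kb at wox3A (HB82). Within 1 Mb the ES share was 62.2% around lg2, and the LS share was 55.7% around ocl4, 66.5% around WOX3A and 58.7% around wox3A (HB82). Within 250 kb the LS share around ocl4 was 100%. Gene density within 1 Mb was 6.5 per Mb around ocl4 and 13.5 around WOX3A, and with genes of all types it was 9 and 13. On their own chromosomes 78.1% of ES genes had a shorter segment than lg2 and 34.5% of LS genes a shorter one than WOX3A. Symbols alone left 0 KNOX, WOX, OCL and leaf patterning genes in ES, 0 WOX, OCL and leaf patterning genes in LS, 1 bZIP and 1 meristem size gene in ES and 1 SBP-box gene in LS, because most names in the table are synonyms. Chosen after seeing the data were the 2.5 Mb flanks and the removal of genes named for another protein, which left 1 SBP-box gene in LS.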
